A study of Mus musculus with 140 samples.

Results

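Podocytes are the epithelial cells that wrap the capillaries of the kidney glomerulus, and 8 of their genes were followed here across the kidney in a mouse model of sepsis. The 8 genes were Nphs1, Cd2ap, Magi2, Plce1, Ptpro, Synpo, Podxl and Wt1, each taken by its symbol from a table of 34255 genes, and each had 1 row. RNA came from male C57BL6/OlaHsd wild-type mice and was read by Lexogen QuantSeq, a method that counts the 3′ ends of transcripts. Laser microdissection gave separate samples of glomeruli, of arterioles, of capillaries around the tubules (peritubular capillaries) and of the venules that follow them. A piece of whole kidney was taken without it. The 7 groups held 4 mice each: mice 4, 24 or 72 h after cecal ligation and puncture (CLP), in which a punctured gut causes sepsis with acute kidney injury, mice 4, 24 or 72 h after a sham operation, and healthy mice at 0 h. With 5 libraries from every mouse, 28 mice gave 140, and the labels name no age. Levels below are CPM (a gene's share of its library's counts, scaled to the usual CPM unit), and they are compared between samples but never between genes.

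Podocyte foot processes interlock, and the gap between them is bridged by the slit diaphragm, the last sieve that plasma crosses before it becomes urine. Nephrin, the product of Nphs1, forms the diaphragm, and its tail is tied to the actin skeleton by adaptor proteins. Loss of several of these genes causes nephrotic syndrome in patients, and loss of podocyte proteins is a recognised feature of glomerular injury.

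The 140 libraries held 4242450 to 18328741 counts. Whole kidney libraries detected 17604 to 20474 genes and glomerular libraries 8870 to 15114, while capillary libraries reached as low as 2949. The biological coefficient of variation shared by all genes, a measure of the spread between mice, was 1.4 in glomeruli against 0.241 in whole kidney. The glomerular label was checked against other podocyte genes in healthy mice: of 45, 42 could be tested and 32 were called higher in glomeruli than in whole kidney. Of 12 glomerular endothelial genes, 10 of the 11 tested were called higher and 1 lower, and of 14 proximal tubule genes 12 were called lower. All 5 erythrocyte genes were also called higher in glomeruli.

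In healthy mice all 8 genes were higher in glomeruli than in whole kidney by edgeR's quasi-likelihood test at an adjusted p below 0.05, against 8.64% of the 13041 genes tested that were called higher. The median log2 fold change of the 8 was 4.98, against -0.49 over all genes tested. Against the other 3 microdissected compartments as 1 set, 7 of the 8 were called higher in healthy mice, against 2.8% of genes, and Cd2ap was not. Nphs1, Wt1 and Ptpro were near 0 in most other microdissected libraries, and Synpo, Podxl and Plce1 were highest in arterioles after glomeruli. Magi2 had an uneven pattern, and the glomerular levels of Cd2ap overlapped those of arterioles. In healthy mice Cd2ap, Synpo and Podxl were present in all compartments.

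**Figure D1:**
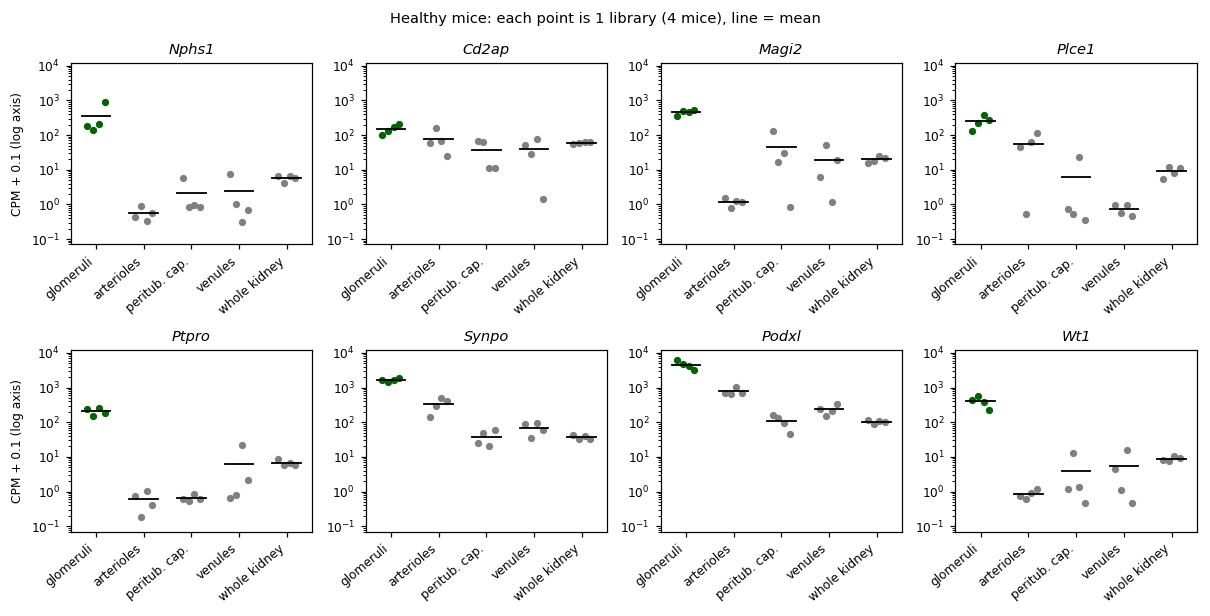
Levels of the 8 genes in healthy mice in glomeruli, arterioles, peritubular capillaries, venules and whole kidney, as CPM + 0.1 on a log axis, with 1 point per library and a line at the mean of 4 mice. Glomerular points lie above every other point for all genes but Cd2ap, whose levels overlap between compartments.

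Nphs1 had 181, 141, 214 and 888.5 CPM in the 4 healthy glomerular libraries, 0.227 to 0.786 CPM in arterioles, 0.728 to 5.81 CPM in capillaries, 0.216 to 7.52 CPM in venules and 4.05 to 6.35 CPM in whole kidney. Replicate 4 of the glomeruli was several times above the other 3, and all 4 were far above every library of the other compartments. The log2 fold change of glomeruli over whole kidney was 5.33 ± 0.47 (SE; adjusted p = 9.78e-06). The gene lies at chr7:30458315-30487223 on the plus strand (GRCm38, GENCODE M21). Of the other genes, Wt1 lies at chr2:105126529-105173616, Ptpro at chr6:137252319-137463233, Plce1 at chr19:38481109-38785030 and Magi2 at chr5:19227036-20704792, all on the plus strand. Podxl at chr6:31519488-31563981 and Cd2ap at chr17:42792951-42876665 lie on the minus strand.

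Wt1, a transcription factor needed to form and keep podocytes, had 431, 561, 375 and 228 CPM in healthy glomeruli, 0.524 to 1.08 CPM in arterioles, 0.38 to 12.8 CPM in capillaries, 0.356 to 15.9 CPM in venules and 7.45 to 10.6 CPM in whole kidney. Ptpro encodes the receptor-type tyrosine phosphatase of the podocyte's apical membrane. It had 242, 152, 253 and 188 CPM in healthy glomeruli, at most 0.907 CPM in arterioles and capillaries, 0.553 to 21.6 CPM in venules and 5.62 to 8.39 CPM in whole kidney. For both genes 1 venule library stood well above the other 3, and it was the same library, replicate 3. The log2 fold changes of glomeruli over whole kidney were 5.21 ± 0.35 for Wt1 (SE; adjusted p = 1.28e-06) and 4.76 ± 0.36 for Ptpro (SE; adjusted p = 3.28e-06).

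Synpo encodes synaptopodin, which binds actin in foot processes, and Podxl encodes podocalyxin, the charged sialomucin of the podocyte surface that blood vessel endothelium also makes. Synpo had 1463 to 1948 CPM in healthy glomeruli, 142 to 490 CPM in arterioles, 20.97 to 60.0 CPM in capillaries, 34.97 to 97.9 CPM in venules and 31.6 to 42.7 CPM in whole kidney. Podxl had 3214 to 6064 CPM in glomeruli, 646 to 1041 CPM in arterioles, 45.7 to 162 CPM in capillaries, 155 to 343 CPM in venules and 89.1 to 118 CPM in whole kidney. For both genes arterioles came second and did not overlap any other compartment. Both transcripts were present in all 28 arteriolar libraries of the 7 groups, at 141.6 to 777.5 CPM for Synpo and 188 to 1041 CPM for Podxl.

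Plce1 encodes phospholipase C epsilon 1, a signalling enzyme of podocyte development. It had 132, 226, 383 and 274 CPM in healthy glomeruli and 46.2, 0.437, 61.3 and 116 CPM in arterioles. Capillaries, venules and whole kidney held 0.253 to 23.1, 0.356 to 0.885 and 5.31 to 11.8 CPM. Thus 3 of 4 arteriolar libraries carried the transcript and 1 was near 0. Magi2, a scaffold protein that binds nephrin, had 356, 503, 451 and 522 CPM in glomeruli, 0.699 to 1.47 CPM in arterioles, 0.759 to 132 CPM in capillaries, 1.08 to 50.3 CPM in venules and 15.8 to 24.3 CPM in whole kidney. The log2 fold changes over whole kidney were 4.55 ± 0.36 for Plce1 (SE; adjusted p = 4.09e-06) and 4.31 ± 0.28 for Magi2 (SE; adjusted p = 9.46e-07).

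Cd2ap encodes the adaptor that links nephrin to actin and that many other cell types also use. It had 99.6, 132, 174 and 214 CPM in healthy glomeruli, 24.2 to 155 CPM in arterioles, 10.9 to 69.6 CPM in capillaries, 1.30 to 76.3 CPM in venules and 54.5 to 62.8 CPM in whole kidney. All 4 glomerular libraries were above all 4 whole kidney libraries, but they overlapped the arterioles. Its log2 fold change over whole kidney was 1.11 ± 0.32 (SE; adjusted p = 0.031), and the adjusted p was 0.0541 to 0.127 when any 1 of the 4 mice was left out. Over the other microdissected compartments it was 1.71 ± 0.90 (SE; adjusted p = 0.372).

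The RefSeq promoter windows of GRCm38.p6, which run from 250 bases before to 50 after a gene's start, were found for 5 of the 8 genes (Nphs1, Cd2ap, Magi2, Plce1, Ptpro; Magi2 with 2 starts). The windows of Nphs1 and Ptpro, near 0 in most other microdissected libraries, and of Cd2ap, present in all compartments, are shown with each CG pair in capitals.
Nphs1, chr7:30459808-30460107, plus strand: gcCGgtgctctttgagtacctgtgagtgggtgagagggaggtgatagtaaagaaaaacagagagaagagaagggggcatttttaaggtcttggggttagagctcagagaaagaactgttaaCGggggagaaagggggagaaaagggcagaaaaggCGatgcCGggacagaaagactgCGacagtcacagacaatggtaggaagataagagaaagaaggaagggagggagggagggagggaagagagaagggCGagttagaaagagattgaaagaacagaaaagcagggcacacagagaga
Ptpro, chr6:137252049-137252348, plus strand: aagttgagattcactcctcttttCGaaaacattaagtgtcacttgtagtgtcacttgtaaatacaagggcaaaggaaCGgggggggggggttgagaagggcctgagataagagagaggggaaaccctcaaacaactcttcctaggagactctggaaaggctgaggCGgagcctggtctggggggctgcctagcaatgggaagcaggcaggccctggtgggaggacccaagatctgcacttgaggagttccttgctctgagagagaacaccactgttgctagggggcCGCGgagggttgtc
Cd2ap, chr17:42876375-42876674, minus strand: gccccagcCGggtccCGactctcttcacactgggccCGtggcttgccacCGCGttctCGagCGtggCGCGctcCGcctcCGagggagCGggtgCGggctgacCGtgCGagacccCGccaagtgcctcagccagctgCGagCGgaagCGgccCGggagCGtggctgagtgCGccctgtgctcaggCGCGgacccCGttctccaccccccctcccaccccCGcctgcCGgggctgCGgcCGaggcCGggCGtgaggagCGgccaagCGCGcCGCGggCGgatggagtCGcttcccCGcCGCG
The Nphs1 window held 6 CG pairs and 49.7% G and C, the Ptpro window 5 pairs and 54.7%, and the Cd2ap window 41 pairs and 77.0%. Among all 32851 windows the median was 7 pairs and 52.7%, and 96.5% of windows had fewer pairs than Cd2ap. Plce1 held 8 pairs, and the 2 Magi2 windows 29 and 4. On either strand the letters GCGTGGGCG, a WT1 binding site, were in 0 of the 6 windows and in 0.612% of all windows. The palindromic E-box CAGCTG, which basic helix-loop-helix factors bind, was in 2 of the 6 (Cd2ap and the first Magi2 window) and in 16.3% of all. These matches describe the letters of the windows only. The windows of Nphs1 and Plce1 and the second Magi2 window lie wholly inside the GENCODE genes.

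The same comparison was made within each operated group. Against the other microdissected compartments, 6 of 8 genes were called higher in glomeruli 4 h after CLP (2.98% of all genes called higher) and 6 at 4 h after sham (2.24%). At 24 h the counts were 2 after CLP (Wt1 and Ptpro; 2%) and 5 after sham (1.75%), and at 72 h they were 7 after CLP (11.3%) and 5 after sham (1.9%). At 72 h after CLP the median log2 fold change over all genes tested was also 2.73, against 0.38 in healthy mice. The capillary libraries of that group detected only 2949 to 5595 genes. The all-gene median was 1.12 at 24 h after CLP, 1.10 at 24 h after sham and 0.85 at 72 h after sham. The count of 2 at 24 h after CLP was 5 without a filter on low counts, 6 with DESeq2 and 5 without the mouse as a block, and it was 2 to 5 when 1 mouse was left out. The counts at 24 h after sham and at 72 h after CLP were 3 to 6 and 4 to 7 with 1 mouse left out.

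Outside glomeruli Nphs1, Wt1 and Ptpro were low in most libraries, with fewer zeros in the earlier groups. Among the 84 libraries of arterioles, capillaries and venules, the 36 from healthy mice and from 4 h had at least 1 Nphs1 count in every case, with a median of 0.853 CPM and 7 libraries over 10 CPM, while 36 of the 48 from 24 and 72 h had none. Wt1 was above 0 in all 36 earlier libraries and at 0 in 36 of the 48 later ones. Ptpro was at 0 in 1 of the 36 and in 33 of the 48. Fewer genes of any kind were detected in the later libraries: arteriolar libraries detected 11339 to 13758 genes in healthy and 4 h mice and 6534 to 9621 at 24 and 72 h. The part of library complexity in these zeros was not tested.

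**Figure D2:**
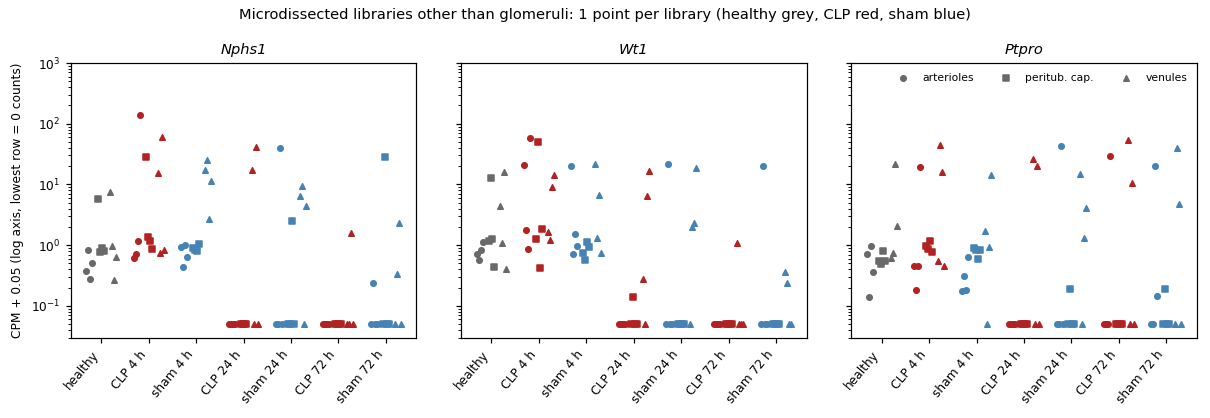
Nphs1, Wt1 and Ptpro in every microdissected library other than glomeruli, as CPM + 0.05 on a log axis, by group, with the marker shape giving the compartment and the lowest row standing for 0 counts. Most healthy and 4 h libraries of arterioles and capillaries sit near 1 CPM, venule libraries spread more widely, and 36 of the 48 libraries from 24 and 72 h sit at 0 for Nphs1.

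Nphs1 reached 1434 counts (142 CPM) in replicate 4 of the arterioles at 4 h after CLP, where Wt1 had 585 counts (57.8 CPM) and Ptpro 199 (19.6 CPM). That library carried all 3 genes, and it belongs to the group in which the Nphs1 contrast missed the threshold (4.81 ± 1.41 SE; adjusted p = 0.0934). Replicate 3 of the venules at 4 h after CLP also carried all 3, with 485 Nphs1, 71 Wt1 and 124 Ptpro counts, as did replicate 3 of the venules at 24 h after CLP, with 379, 58 and 179 counts.

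In venules the signal was spread over more libraries. Nphs1 had 15.1, 0.688, 61.4 and 0.795 CPM in venules 4 h after CLP, against 17.1, 24.99, 2.65 and 11.3 CPM 4 h after sham, so that 5 of 8 libraries were above 10 CPM. At 24 h after CLP replicates 1 and 3 held 149 and 379 Nphs1 counts and 233 and 179 Ptpro counts. Replicate 3 of the arterioles at 24 h after sham held 358 Nphs1 and 392 Ptpro counts, and in capillaries at 4 h after CLP replicate 1 held 277 Nphs1 counts and replicate 2 held 304 Wt1 counts.

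Whether sepsis changed the podocyte genes was asked in glomeruli first, by setting CLP against sham at each time. In these bulk samples, here and in whole kidney, fewer podocytes and less RNA per podocyte cannot be told apart. None of the 8 was called at 4 h (0.11% of the 14586 genes tested were called), at 24 h (0.137%) or at 72 h (0.0343%). Of the 24 tests, Magi2 at 4 h was the only one with an unadjusted p under 0.05. The median log2 fold change of the 8 was -0.14 at 4 h, 0.11 at 24 h and 0.15 at 72 h, against -0.03, -0.04 and 0.00 over all genes. The SE ran from 0.25 for Synpo to 0.71 for Nphs1 at 4 h, and the 95% intervals of the 24 tests reached from -2.02 to 2.73 on the log2 scale.

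**Figure D3:**
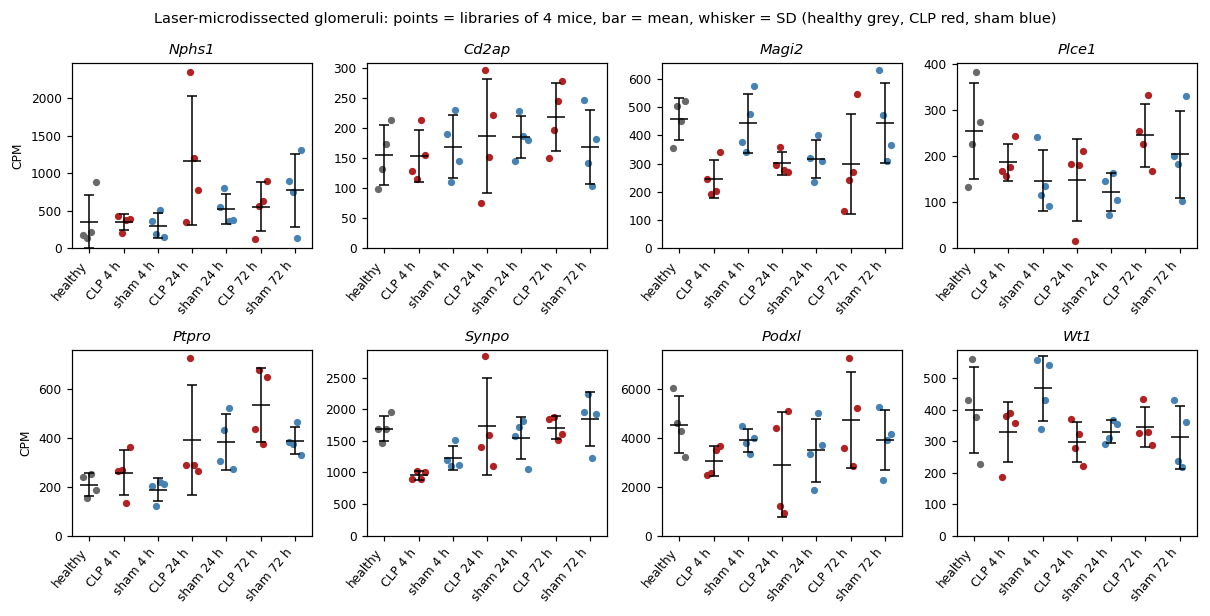
The 8 genes in microdissected glomeruli, CPM on a linear axis from 0, by group in order of time, with 1 point per library, a bar at the mean and a whisker of 1 SD over 4 mice (healthy grey, CLP red, sham blue). CLP and sham points overlap for all genes and times but Magi2 and Synpo at 4 h.

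Magi2 had 245, 194, 202 and 341 CPM in glomeruli 4 h after CLP, against 377, 342, 474 and 576 CPM 4 h after sham. Every CLP library was below every sham library, though the nearest, 341 CPM after CLP and 342 CPM after sham, were close. The log2 fold change was -0.75 ± 0.33 (SE; adjusted p = 0.887). Synpo had 899, 1017, 892 and 1010 CPM after CLP, against 1195, 1101, 1507 and 1110 CPM after sham, which also did not overlap, and its log2 fold change was -0.26 ± 0.25 (SE; adjusted p = 1). These were the only 2 of the 8 with CLP below sham throughout, against 2.68% of all genes, and neither kept the separation when CPM were scaled by TMM, the scaling used in the fits.

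Markers of other cells moved in the same libraries. The summed level of 8 neutrophil genes was 1500 to 2980 CPM in glomeruli 4 h after CLP, against 48.6 to 245 CPM after sham, and none of the 8 was at 0 in all libraries of either group. The 12 glomerular endothelial genes summed to 4760 to 6750 CPM after CLP and 6780 to 8990 CPM after sham, also without overlap. Their part in the podocyte gene levels was not tested.

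Within groups of glomerular libraries Nphs1 had the highest SD on the log2(CPM + 1) scale, 1.04, and Synpo the lowest, 0.32. Over all 28 libraries Nphs1 ran from 123 to 2348 CPM and Plce1 from 16.19 to 382.9 CPM, the widest range of the 8 as a ratio. At 24 h Nphs1 had 352, 2348, 1204 and 771 CPM after CLP, against 555, 802, 359 and 382 CPM after sham. The groups overlapped, and the log2 fold change was 1.25 ± 0.72 (SE; adjusted p = 0.555). Without a filter on low counts the same contrast passed (1.24; adjusted p = 0.0403), and over all 13 alternatives the adjusted p lay between 0.0403 and 0.964. At 72 h Nphs1 had 123 to 899 CPM after CLP and 139 to 1310 CPM after sham, and its log2 fold change was -0.56 ± 0.71 (SE; adjusted p = 1).

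Podxl varied between mice at 24 h after CLP, with 4393, 1205, 934 and 5114 CPM, against 3366, 1872, 5034 and 3713 CPM after sham. The CLP libraries reached beyond the sham libraries on both sides. The log2 fold change was -0.26 ± 0.37 (SE; adjusted p = 0.971). Plce1 had 183, 16.2, 181 and 211 CPM after CLP, against 147, 72.9, 164 and 105 CPM after sham. Replicate 2 of that group was the lowest of all glomerular libraries for Plce1 and the highest for Nphs1 (2348 CPM), Synpo (2836 CPM), Ptpro (730 CPM) and Cd2ap (298 CPM). No group was separated from its sham group for any of the 8 at 24 h or 72 h, against 3.94% and 2.78% of all genes.

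Ptpro had 438, 681, 375 and 652 CPM in glomeruli 72 h after CLP, against 385, 375, 465 and 330 CPM after sham, with a log2 fold change of 0.40 ± 0.35 (SE; adjusted p = 1). Wt1 had 325, 434, 330 and 289 CPM after CLP and 430, 238, 217 and 360 CPM after sham (0.09 ± 0.31; SE). Cd2ap had 150, 197, 246 and 280 CPM after CLP and 248, 142, 105 and 182 CPM after sham (0.32 ± 0.40; SE). Magi2 went the other way, with 133, 243, 269 and 547 CPM after CLP and 630.5, 474, 310 and 366 CPM after sham. The groups overlapped for each of these genes. The CLP effects at 24 and 72 h were also set against that at 4 h, and at 72 h against that at 24 h, and none of the 8 was called (0.00686%, 0.0137% and 0% of all genes called).

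In whole kidney the spread between mice was smaller than in glomeruli, and the SE of the 8 genes ran from 0.11 to 0.34. None of the 8 was called between CLP and sham at 4 h (2.24% of 14936 genes called), at 24 h (5.28%) or at 72 h (3.89%). The median log2 fold change of the 8 was -0.13 at 4 h, 0.18 at 24 h and 0.27 at 72 h, against 0.00, 0.02 and 0.03 over all genes. Positive values were seen in 3 of 8 genes at 4 h, 7 of 8 at 24 h and 8 of 8 at 72 h.

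**Figure D4:**
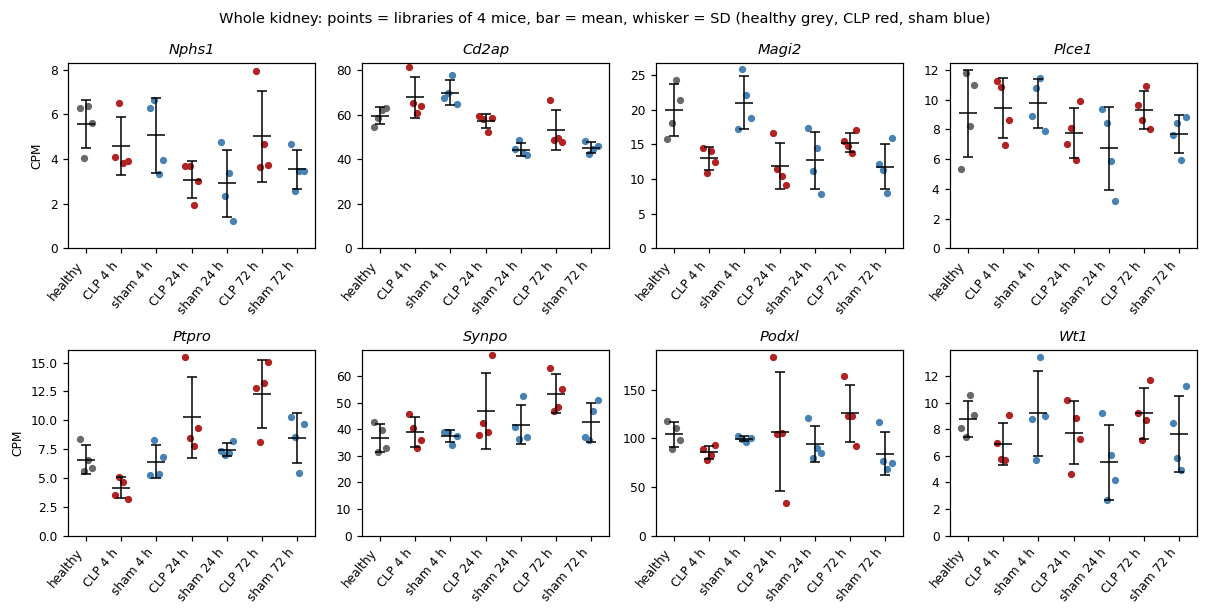
The 8 genes in whole kidney, CPM on a linear axis from 0, by group in order of time, with 1 point per library, a bar at the mean and a whisker of 1 SD over 4 mice (healthy grey, CLP red, sham blue). Magi2, Ptpro and Podxl at 4 h lie lower after CLP than after sham, and Cd2ap at 24 h lies higher.

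Magi2 had 14.5, 10.9, 14.1 and 12.4 CPM in whole kidney 4 h after CLP, against 17.2, 25.8, 22.2 and 18.9 CPM 4 h after sham. The groups did not overlap, and the 4 healthy libraries had 15.8 to 24.3 CPM. Its log2 fold change was -0.64 ± 0.21 (SE; adjusted p = 0.127), and the adjusted p lay between 0.0661 and 0.412 over the 13 alternatives. Ptpro had 3.54, 5.12, 4.67 and 3.19 CPM after CLP, against 5.28, 8.28, 5.30 and 6.78 CPM after sham, and its log2 fold change was -0.59 ± 0.25 (SE; adjusted p = 0.353).

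Podxl had 88.8, 77.3, 82.5 and 93.1 CPM after CLP, against 103, 98.8, 96.4 and 99.8 CPM after sham (-0.17 ± 0.25; SE). Thus 3 of the 8 genes had every CLP library below every sham library at 4 h, against 4.23% of all genes. With TMM-scaled CPM only Magi2 kept that separation. In the same libraries the 8 neutrophil genes summed to 117 to 308 CPM after CLP and 14.1 to 30.1 CPM after sham, and the 14 proximal tubule genes to 51600 to 63900 CPM after CLP and 48500 to 58100 CPM after sham. Of the neutrophil genes 1 was at 0 in all 4 sham libraries, and Lcn2, another of them, is also made by injured tubules. Their part was not tested.

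Cd2ap had 59.5, 57.9, 52.4 and 58.3 CPM in whole kidney 24 h after CLP, against 44.4, 48.4, 42.8 and 41.7 CPM 24 h after sham. All CLP libraries were above all sham libraries, as in 5.01% of all genes, and Cd2ap was the only one of the 8 with that pattern. The log2 fold change was 0.34 ± 0.12 (SE; adjusted p = 0.0829). DESeq2 gave an adjusted p of 0.0482, and the adjusted p lay between 0.0482 and 0.407 over the 13 alternatives. Healthy kidneys had 54.5 to 62.8 CPM, which the CLP libraries overlapped and the sham libraries did not. In the same libraries the 14 proximal tubule genes summed to 31700 to 46000 CPM after CLP and 55600 to 61500 CPM after sham, and their part was not tested.

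At 72 h Ptpro had 12.8, 8.09, 13.2 and 15.1 CPM after CLP, against 10.2, 8.54, 5.45 and 9.66 CPM after sham (0.46 ± 0.24; SE; adjusted p = 0.419). Podxl had 164, 123, 123 and 92.4 CPM after CLP, against 117, 76.2, 68.8 and 74.2 CPM after sham (0.50 ± 0.25; SE; adjusted p = 0.389). Both sets overlapped, and no gene of the 8 was separated at 72 h, against 10.6% of all genes. The 14 proximal tubule genes summed to 25000 to 33900 CPM after CLP and 57800 to 65000 CPM after sham in these libraries. The part of that difference in the levels of the 8 was not tested.

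**Figure D5:**
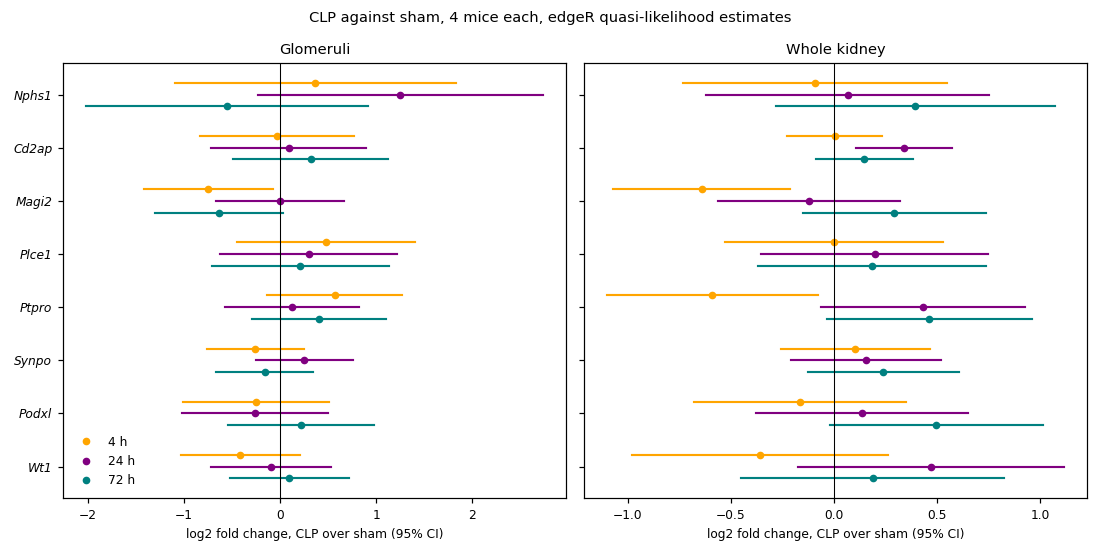
Log2 fold changes of CLP over sham with 95% confidence intervals for the 8 genes in glomeruli and whole kidney at 4, 24 and 72 h, 4 mice a group. The horizontal ranges of the panels differ; intervals are wider in glomeruli, and those of Magi2 at 4 h lie below 0 in both panels although neither passed the adjusted threshold.

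The change of the CLP effect over time was tested directly in whole kidney. None of the 8 was called between 24 h and 4 h (1.84% of genes called), between 72 h and 4 h (2.52%) or between 72 h and 24 h (0.509%). Between 72 h and 4 h all 8 differences were positive, with a median of 0.52 against 0.02 over all genes. Those of Magi2 and Ptpro had the lowest p. Magi2 differed by 0.94 ± 0.30 on the log2 scale (SE; adjusted p = 0.104), and Ptpro by 1.05 ± 0.35 (SE; adjusted p = 0.119). The Magi2 difference passed when replicate 4 of the 72 h sham mice was left out (1.13; adjusted p = 0.0453).

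The sham operation itself was set against healthy mice, using the same sham libraries as above. In glomeruli none of the 8 was called at 4 h (0.00686% of genes), 24 h (0%) or 72 h (0.00686%). Synpo had 1101 to 1507 CPM 4 h after sham, against 1463 to 1948 CPM in healthy mice, with an overlap (-0.50 ± 0.25; SE; adjusted p = 1). Ptpro had 275 to 522 CPM 24 h after sham, against 152 to 253 CPM in healthy mice (0.84 ± 0.35; SE; adjusted p = 0.565). At 72 h Ptpro had 330 to 465 CPM after sham (0.86 ± 0.35; SE; adjusted p = 0.463). Plce1 had 72.9 to 164 CPM 24 h after sham, against 132 to 383 CPM in healthy mice (-1.11 ± 0.46; SE; adjusted p = 0.565). Glomerular libraries detected 12897 to 14164 genes in healthy mice and 13582 to 14661 at 4 h after sham. Fewer were detected at 24 h (11655 to 12726) and at 72 h after sham (11273 to 11647). The part of library complexity in these differences was not tested.

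In whole kidney none of the 8 was called for sham against healthy at 4 h (0.937% of genes), 24 h (6.41%) or 72 h (8.44%). Magi2 had 12.1, 11.2, 7.92 and 15.9 CPM 72 h after sham, against 15.8, 18.03, 24.3 and 21.4 CPM in healthy mice (-0.63 ± 0.21; SE; adjusted p = 0.059). Only the top sham library reached the lowest healthy one. Cd2ap at 24 h was -0.33 ± 0.11 (SE; adjusted p = 0.0704), and Nphs1 had 4.74, 2.33, 3.37 and 1.23 CPM 24 h after sham, against 6.29, 4.05, 6.35 and 5.61 CPM in healthy mice (-0.85 ± 0.33; SE; adjusted p = 0.1). DESeq2 called Cd2ap at 24 h (adjusted p = 0.0317) and Magi2 at 72 h (adjusted p = 0.0338). Leaving out replicate 1 of the 24 h sham mice gave calls for Nphs1 (adjusted p = 0.0365) and Magi2 (adjusted p = 0.0419).

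In the other microdissected compartments CLP and sham were also set against each other. None of the tested members was called in arterioles at 4, 24 or 72 h (0.00821%, 0.0164% and 0% of genes called), in venules (0%, 0.0813% and 0.0443%) or in capillaries at 4 or 24 h (0% and 0.051%). Of the 8, 7 passed the filter on low counts in arterioles and capillaries, and 8 in venules. In capillaries at 72 h Nphs1 and Plce1 were called lower after CLP, against 20.5% of all genes called lower and an all-gene median of -1.28, so that 2 of 7 is near the background. The count of called members fell to 0 with RLE scaling, without a filter and with a replicate block, and it was 0 to 1 when any 1 mouse was left out. With the 2 groups alone neither gene passed the filter on low counts, so neither was tested. All 4 CLP libraries had 0 counts of both. Replicate 2 of the sham mice held all 208 Nphs1 counts and replicate 1 all 650 Plce1 counts, and the other 3 sham libraries had 0. Set against 3 counts over the CLP group, the pooled sham level was 56.9-fold higher for Nphs1 and 178-fold higher for Plce1. Each ratio rests on 1 sham library and does not describe the other 3, which were at 0 as after CLP. The adjusted p was 0.0485 for Nphs1 and 0.0499 for Plce1, and the other 7 libraries were at 0 for each gene.

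The surroundings of the 8 were read from 45 other podocyte genes and 8 genes linked to podocyte injury. In glomeruli none of the 43 tested podocyte genes and 7 tested injury genes was called between CLP and sham at any time. Of all genes tested there, 0.11% were called at 4 h, 0.137% at 24 h and 0.0343% at 72 h, so that 0 is near the background. In whole kidney 41 podocyte genes were tested, and at 24 h 0 rose and 2 fell, against 3.04% of all genes called higher and 2.24% called lower. Col4a4, a collagen chain of the glomerular basement membrane, had 178 to 209 CPM after CLP and 221 to 341 CPM after sham (-0.49 ± 0.13; SE; adjusted p = 0.0145). Tcf21, a transcription factor also made by stromal cells, had 4.17 to 10.9 CPM after CLP and 9.84 to 25.8 CPM after sham (-0.91 ± 0.27; SE; adjusted p = 0.0458).

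Of the injury genes 1 of 7 rose in whole kidney at 24 h and 0 fell, against the same 3.04% and 2.24% of all genes, and all 7 had positive log2 fold changes. The called one was Ctsl, the lysosomal protease cathepsin L, which tubules also make, with 485 to 684 CPM after CLP and 176 to 348 CPM after sham (1.27 ± 0.21; SE; adjusted p = 0.000177). At 72 h 1 of 41 podocyte genes rose and 0 fell, against 1.74% of all genes called higher and 2.15% called lower. Cdkn1c, the cell cycle inhibitor p57 of mature podocytes, had 44.0 to 52.5 CPM after CLP and 17.5 to 31.3 CPM after sham (0.89 ± 0.19; SE; adjusted p = 0.00305). In glomeruli Cdkn1c had 1480 to 2017 CPM after CLP at 72 h, against 524 to 1129 CPM after sham, also without overlap, but was not called there (1.05 ± 0.27; SE; adjusted p = 0.233). Its CLP effect in whole kidney differed between 72 h and 4 h by 1.21 ± 0.27 on the log2 scale (SE; adjusted p = 0.00956). In capillaries at 72 h, 7 of 38 podocyte genes were called lower, against 20.5% of all genes, so that 7 of 38 is near the background. Of 6 injury genes Des was called lower and Plaur higher, against the same 20.5% called lower and 1.8% called higher. The 4 podocyte genes with the smallest adjusted p there were Cd151 (0.00374), Npnt (0.00464), Robo2 (0.0428) and Lama5 (0.0448).

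Across the 35 group means the 8 genes were alike to different degrees. The Pearson correlation of each with the mean of the other 7, on log2(CPM + 1), ran from 0.74 for Cd2ap to 0.938 for Wt1. Among 11292 other genes with at least 5 CPM in healthy glomeruli, the 10 most like the mean of the 8 were Cdkn1c (r = 0.956), Wt1os (0.954), Ddn (0.954), Myl7 (0.95), Myom2 (0.944), Rhbdl3 (0.942), Aplp1 (0.942), Foxd1 (0.94), Wif1 (0.939) and Nr2f1 (0.935). Only Cdkn1c and Ddn were on the list of other podocyte genes. The 35 means share mice, since each mouse gave all 5 samples. They span the 5 compartments, so genes higher in glomeruli than elsewhere correlate through that difference. Likeness between groups within a compartment was not tested. Wt1os is the antisense neighbour of Wt1, with 83.0 CPM in healthy glomeruli against 399 CPM for Wt1. It lies 18 bases from Wt1 on the opposite strand, without overlap (GENCODE M21). The build and strand setting of the counting are not given in the sources used here. Other members do overlap neighbours. On the same strand Magi2 overlaps Gm29254 by 2516 bases and Gm3544 by 305, both at 0 CPM in healthy glomeruli. Ptpro overlaps Gm44258 by 301 bases on the same strand (3.26 CPM). Nphs1 overlaps Rps12-ps4 by 397 bases on the opposite strand (2.33 CPM). Whether reads of a member and a neighbour were counted for one another was not tested.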

How the data were processed

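Gene counts in 140 libraries (28 mice, 5 samples each) were taken as deposited, as whole-number counts per gene, not normalized. Per the submitters' processing notes the reads were checked with FastQC 0.11.8 and MultiQC 1.7, and the notes also list STAR 2.7, featureCounts, HTSeq 0.13 and SAMtools 1.9, with GRCm38.p6 and GRCm39 both named. Which tool made the counts, the build of the final table and the strand setting are not given in the sources used here. All 140 columns were matched to samples by name, and 0 per-sample columns were left over. The deposited table places the 20 healthy libraries at 4 h and the labels at 0 h; the labels were followed.

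Each compartment was fitted over its 28 libraries with edgeR 4.0.16 in R 4.3.3 (filterByExpr, TMM, quasi-likelihood test, Benjamini-Hochberg adjustment over all genes tested; called means an adjusted p below 0.05). Compartments were compared within a group with the mouse as a block. DESeq2 1.42.0, RLE scaling, no filter, the 2 groups alone, a replicate block and leaving out each mouse were the alternatives. The tests were checked on simulated data for whole kidney, for glomeruli and for glomeruli against whole kidney. The simulated spread in glomeruli was below that of the real libraries, and arterioles, capillaries and venules were not simulated. Libraries held 4242450 to 18328741 counts, and folds are log2 values from the fits. Total counts overlapped between glomeruli (5876926 to 13149328) and whole kidney (4778376 to 16308778). The biological coefficient of variation was 1.4 in glomeruli and 0.241 in whole kidney.

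The 8 genes and the gene lists were chosen with earlier results of these data known. Counts of called genes cover all of the 8 that passed the filter in each comparison. CPM values after CLP and sham are given for only some of the 8. Of the other podocyte genes up to 4 called ones per comparison of CLP and sham were named by smallest adjusted p, and of the injury genes every called one; the other podocyte genes in whole kidney at 4 h are not reported here. Promoters are from RefSeq (GRCm38.p6). Same-numbered CLP and sham libraries are different mice.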

Additional observations from a re-analysis of the deposited data

Results flagged for a closer look

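Of 112 groups of 4 libraries (8 genes, 7 groups, glomeruli and whole kidney), 9 held 1 library whose gap to the nearest of the others exceeded Dixon's 95% critical value, and chance marks about 1 in 20 groups. In glomeruli, Nphs1 was at 888.5 CPM in replicate 4 of the healthy mice (others 141.2 to 213.7 CPM), and Wt1 was at 186.5 CPM in replicate 1 at 4 h after CLP (others 356.2 to 387.8 CPM). Ptpro was at 120.9 CPM in replicate 2 at 4 h after sham (others 205 to 218.6 CPM).

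Replicate 2 of the glomeruli at 24 h after CLP stood apart for both signalling genes, with Ptpro at 730.4 CPM (others 263.7 to 289 CPM) and Plce1 at 16.19 CPM (others 181.4 to 211.2 CPM). In whole kidney, Nphs1 was at 6.503 CPM in replicate 2 at 4 h after CLP (others 3.816 to 4.076 CPM), and Synpo was at 68.07 CPM in replicate 4 at 24 h after CLP (others 38.06 to 42.5 CPM). Cd2ap was at 66.55 CPM in replicate 1 at 72 h after CLP (others 47.49 to 49.51 CPM), and Podxl was at 116.7 CPM in replicate 1 at 72 h after sham (others 68.82 to 76.16 CPM).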

How the results depend on the processing

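In capillaries at 72 h the 2 calls between CLP and sham became 0 with RLE scaling, 0 without a filter on low counts and 0 with a replicate block. There was 1 call with DESeq2 (Magi2, higher) and 0 to 1 when any 1 mouse was left out. Nphs1 and Plce1 did not pass the filter with the 2 groups fitted alone and had no adjusted p with DESeq2. DESeq2 called 1 member in arterioles at 24 h and 1 at 72 h, where the main count was 0 (Wt1, lower; all 4 CLP and 3 of 4 sham libraries were at 0, and 1 sham library held all counts, 147 at 24 h and 215 at 72 h). It also called 1 in whole kidney for CLP against sham at 24 h, 1 for sham against healthy at 24 h and 1 at 72 h. Without a filter 1 was called in glomeruli at 24 h (Nphs1).

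Against the other microdissected compartments the 2 calls at 24 h after CLP became 5 without a filter, 6 with DESeq2 and 5 with no replicate block, and 2 to 5 with 1 mouse left out. The ranges with 1 mouse left out were 6 to 7 at 4 h after CLP and after sham, 3 to 6 at 24 h after sham, 4 to 7 at 72 h after CLP and 5 to 6 at 72 h after sham. Against whole kidney in healthy mice the count of 8 was 7 in every such fit. They were 0 to 2 for sham 24 h against healthy and 0 to 1 for the CLP effect at 72 h against 4 h, both in whole kidney. With CPM scaled by TMM, an alternative chosen after seeing the data, the non-overlapping members at 4 h became 0 in glomeruli and 1 in whole kidney. No called value changed sign in these alternatives.

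Adding the replicate block changed no other count. Other changes in the comparisons with the microdissected compartments were gains of 1 or 2 calls, without a filter, with DESeq2, with RLE scaling or with no replicate block. Because same-numbered CLP and sham libraries are different mice, the numbers were not taken to pair the samples. Their deviations correlated at -0.05 to 0.04 in the microdissected compartments and at -0.14 to 0.47 in whole kidney. There 3 of 4 correlations at 24 h and 2 of 4 at 72 h were above 0.1. The cause of these changes was not tested. With 4 mice a group, the SE of the members' log2 fold changes of CLP over sham in glomeruli was 0.25 to 0.72, which limits the precision.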
